A study of Homo sapiens with 15 samples.

Results

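Cytokines of the interleukin 1 family and their receptors were followed across triple negative breast cancer cell lines. Rows of the deposited expression table were taken by gene symbol for IL1A, IL1B, IL18, IL33, IL36G, IL1RN, IL1R1, IL1RAP, IL1R2 and IL1RL1, and all 10 symbols were found among the 33158 of the table. The study sequenced mRNA of 15 libraries, in 5 groups of 3, to compare cancer stem cells (CSCs) with non-CSCs. In the established lines SUM149PT and HCC1937, cells stained as CD44+/CD24-/low were collected as CSCs and the remaining cells as non-CSCs by fluorescence activated cell sorting. SUM159PT, also an established line, was sequenced without a sort and is labelled as cancer stem cells, because the study found nearly all of its cells to have that surface phenotype. The labels describe all 5 groups as triple negative and name no treatment and no genetic alteration made by the study. SUM149PT was derived from an inflammatory breast cancer. Each line is a single line, and nothing in the labels says that the libraries of a group came from separate cultures or sorts, so p-values measure the spread between these libraries, which may be technical.

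Interleukin 1 alpha and interleukin 1 beta, encoded by IL1A and IL1B, are agonists of the signaling receptor IL1R1, which on binding recruits the accessory chain IL1RAP and, inside the cell, the adaptor MYD88 and the IRAK kinases that lead to NF-kB activation. Signaling is held back at the cell surface by the receptor antagonist IL1RN, which binds IL1R1 without recruiting the accessory chain, and by the decoy receptor IL1R2, which binds ligand but has no signaling domain. IL18, IL33 and IL36G are relatives with receptors of their own: IL33 is bound by IL1RL1, also called ST2, and both ST2 and the interleukin 36 receptor use IL1RAP as well. Epithelial cells and keratinocytes are known sources of several of these ligands, and interleukin 1 beta is studied in breast cancer for its part in inflammation around the tumor.

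Expression was given in FPKM, fragments counted relative to the length of the transcript and to all fragments mapped in the library, a scale per length on which levels of different genes can be set side by side. The SUM159PT libraries stood apart from the others on this scale. FPKM summed over genes to between 291276 and 366532 in the 12 sorted libraries and to between 634746 and 652082 in the 3 SUM159PT libraries. The 100 most abundant genes held 30.6 to 34.7% of that sum in the sorted libraries and 58.3 to 59.2% in SUM159PT, and 11249 to 11997 genes reached 1 FPKM in the sorted libraries against 8534 to 8670 in SUM159PT. Levels in SUM159PT relative to the other lines therefore moved with the scaling, and where a direction turned with it this is given beside the value. Within groups, Pearson correlations of log2(FPKM + 0.1) across genes were between 0.972 and 0.990 for the 15 pairs of libraries, and 0 pairs of libraries were identical.

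Marker genes were read against the labels. CD24, used in the sort, was at 7.97, 7.64 and 7.61 FPKM in the SUM149PT CSC libraries and at 147, 137 and 134 FPKM in the non-CSC libraries. In HCC1937 it was at 23.6, 22.5 and 23.9 FPKM in CSCs and 167, 141 and 142 FPKM in non-CSCs, and in SUM159PT at 0.759, 0.682 and 0.745 FPKM. CD24 was thus low in each CSC library of the sorted lines, as the sort sets it, and lower still in unsorted SUM159PT, while CD44 was at 84.4 ± 2.08 FPKM (SD, n = 3) in SUM149PT CSCs and 64.5 ± 2.86 FPKM in non-CSCs, and at 106 ± 6.33 and 97.8 ± 3.98 FPKM in the HCC1937 fractions. CD44 passed the call rule given below in neither line. In SUM159PT, CD44 was at 28.6, 29.4 and 28.4 FPKM, below every library of the sorted lines, non-CSCs included. The label rests on surface staining, which was not measured here. Of the genes that define the triple negative class, the progesterone receptor PGR had a mean of at most 0.00101 FPKM in every group, the estrogen receptor ESR1 was at 0.970 FPKM in SUM149PT non-CSCs and 1.66 FPKM in HCC1937 non-CSCs, and ERBB2 was at 16.4, 18.3 and 17.8 FPKM in HCC1937 non-CSCs and 17.4, 19.8 and 20.0 FPKM in SUM159PT, where the ranges overlapped. The leukocyte marker PTPRC had a group mean of at most 0.0660 FPKM, and the lymphocyte genes CD3E and MS4A1 were listed at 0 in all 15 libraries.

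Apart from IL18 on chromosome 11, IL33 on chromosome 9 and IL1RAP on chromosome 3, the members lie in a pair of clusters on chromosome 2 (GENCODE release 29, GRCh38). IL1R2, IL1R1 and IL1RL1 are among 5 protein coding genes between positions 101991844 and 102352037, with IL1RL2 and IL18R1. IL1A, IL1B, IL36G and IL1RN are among 9 protein coding genes between 112773915 and 113134016. IL1RL1 overlaps IL18R1 on the same strand, so reads from the shared stretch could be given to either gene, and the levels of both are less certain. IL36G, IL1R1, IL1RAP and IL18 overlap a pseudogene, an antisense gene or other noncoding genes, and IL1A, IL1B, IL1RN, IL33 and IL1R2 overlap no annotated gene.

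Because IL1RN, IL36G, IL33 and IL1R2 were lower together in the CSCs of SUM149PT, and IL1A and IL1B were the most abundant agonists, the 250 bases before a start site of each are shown, 5′ to 3′ on the strand of the gene. The sequences are from RefSeq (GRCh38.p14), in which 9 of the 10 members had 18 start sites in all. For genes with several start sites the one listed at the lowest coordinate was taken. Capitals mark matches to a loose form of the NF-kB motif (GGG, any 5 bases, then CC) or to TGANTCA, the AP-1 motif, on either strand.
IL1RN (chr2:113117721-113117970, forward strand): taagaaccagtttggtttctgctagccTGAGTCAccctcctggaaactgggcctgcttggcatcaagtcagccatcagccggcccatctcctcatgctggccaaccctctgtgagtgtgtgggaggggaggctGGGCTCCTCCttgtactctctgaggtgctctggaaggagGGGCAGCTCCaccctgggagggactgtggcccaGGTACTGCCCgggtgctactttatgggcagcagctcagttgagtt
IL36G (chr2:112977756-112978005, forward strand): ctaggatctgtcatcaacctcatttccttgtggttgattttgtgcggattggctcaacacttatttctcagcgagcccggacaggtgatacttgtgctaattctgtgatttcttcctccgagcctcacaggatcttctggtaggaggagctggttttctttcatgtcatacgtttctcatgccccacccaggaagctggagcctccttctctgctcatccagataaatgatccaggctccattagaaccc
IL33 (chr9:6214899-6215148, forward strand): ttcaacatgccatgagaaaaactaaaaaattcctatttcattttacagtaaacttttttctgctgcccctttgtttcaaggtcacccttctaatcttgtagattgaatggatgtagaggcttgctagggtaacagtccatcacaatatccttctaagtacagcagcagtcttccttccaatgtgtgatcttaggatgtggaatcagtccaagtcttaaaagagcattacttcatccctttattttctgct
IL1R2 (chr2:101991710-101991959, forward strand): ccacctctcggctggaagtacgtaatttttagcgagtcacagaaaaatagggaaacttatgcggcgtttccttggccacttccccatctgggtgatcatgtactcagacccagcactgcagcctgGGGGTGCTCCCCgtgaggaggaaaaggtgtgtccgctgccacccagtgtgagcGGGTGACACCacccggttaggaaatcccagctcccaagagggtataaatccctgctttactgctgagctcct
IL1A (chr2:112784401-112784650, reverse strand): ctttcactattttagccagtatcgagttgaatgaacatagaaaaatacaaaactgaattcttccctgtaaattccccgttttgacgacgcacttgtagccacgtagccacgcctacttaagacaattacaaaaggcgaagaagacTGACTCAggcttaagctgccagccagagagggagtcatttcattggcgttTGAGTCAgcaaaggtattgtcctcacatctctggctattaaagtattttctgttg
IL1B (chr2:112836780-112837029, reverse strand): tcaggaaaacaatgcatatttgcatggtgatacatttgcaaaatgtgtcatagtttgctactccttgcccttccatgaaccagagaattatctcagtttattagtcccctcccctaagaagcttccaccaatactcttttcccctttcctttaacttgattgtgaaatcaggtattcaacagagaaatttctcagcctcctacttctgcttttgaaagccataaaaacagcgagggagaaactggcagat
The loose NF-kB form was present in 54.4% and the AP-1 form in 6.57% of 35116 promoters of the same length. IL1RN had 3 matches of the NF-kB form, at 117, 78 and 45 bases before the start, and an AP-1 match at 223 bases. IL1R2 had 4 matches of the NF-kB form, of which 3 overlap each other in a single run of capitals. IL1A had AP-1 matches at 105 and 55 bases, and the windows of IL36G, IL33 and IL1B held neither form. These counts are for the windows shown. The other start sites of IL1RN held 0 and 1 matches of the NF-kB form and no AP-1 match. The other start site of IL1R2 held neither form, and that of IL1A held 1 AP-1 match. Which start site these cells use was not tested. A match describes the letters only and is not a binding site.

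**Figure D1:**
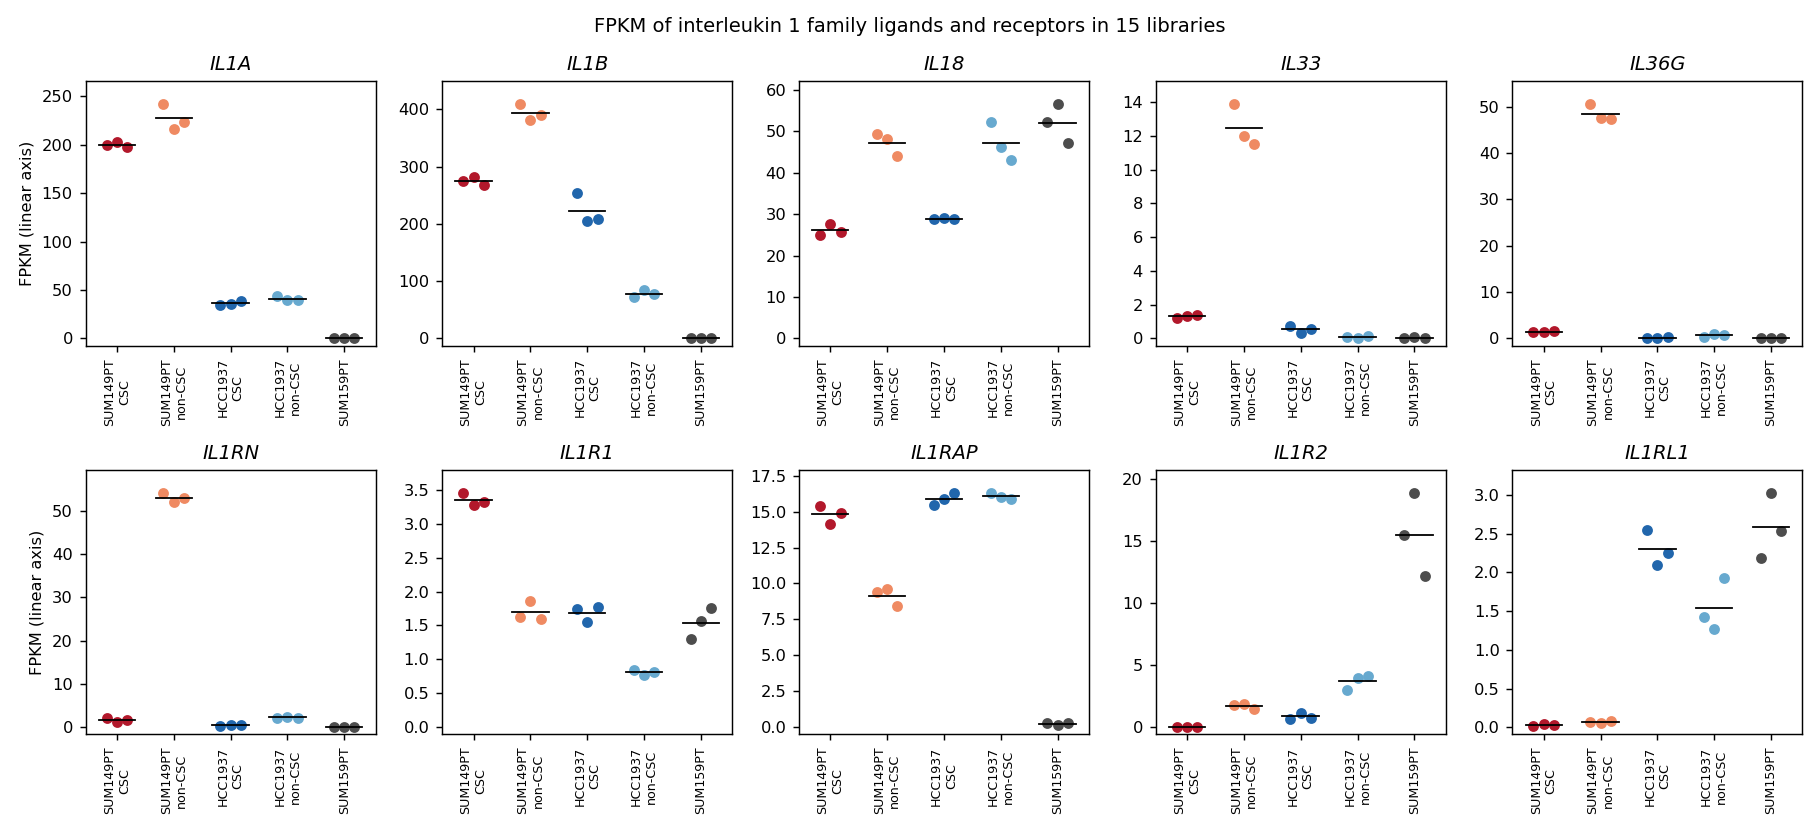
FPKM of each member in every library on linear axes, with 1 point per library, a bar at the mean of 3, and the 5 groups along the horizontal axis. IL1RN, IL36G and IL33 are high in the SUM149PT non-CSC libraries only, IL1B is high in all SUM149PT libraries and in HCC1937 CSCs, and IL1R2 is highest in SUM159PT.

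Each sorted line was asked which genes differed between its CSCs and non-CSCs. Calls required an adjusted p no larger than 0.05 (limma, Benjamini-Hochberg over all genes tested) together with a 2-fold difference, that is, a log2 fold change of 1 or more in size. Fold changes are on the log2(FPKM + 0.1) scale, CSC minus non-CSC, which understates the change of genes at low FPKM. Tests were limited to genes whose mean over the fitted libraries reached 0.1 FPKM. In SUM149PT, 9 of the 10 members passed this minimum and 4 were called, all of them lower in CSCs (IL1RN, IL36G, IL33 and IL1R2), beside 34.9% of all 16037 genes tested being called, 12.8% higher and 22.1% lower. IL1R2 passed the minimum there only through non-CSCs (mean 1.72 FPKM, against 0.0348 FPKM in CSCs), so it could hardly be called in the other direction. The count of 4 is therefore not comparable with those shares. In HCC1937 all 10 were tested and 5 were called, beside 8.71% of 15582 genes. IL1B and IL33 were called higher there (2.71% of genes were), and IL1RN, IL1R2 and IL36G lower (6.0% were). The calls of IL33 and IL36G in HCC1937 were made below 1 FPKM and ended when single libraries were left out, as given with their values. An exact permutation test of 3 libraries against 3 cannot give a p below 0.10, so single genes were tested only in the fit across genes.

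The split of all calls depended on the scaling. As deposited, 36.5% of the SUM149PT calls and 31.1% of the HCC1937 calls were higher in CSCs, against 51.2% and 40.8% after quantile normalization and 39.0% and 42.2% after scaling to TPM. The median log2 fold change of all genes tested in SUM149PT was -0.11 as deposited and 0.10 after quantile normalization, and in HCC1937 it was -0.03 as deposited and 0.09 after TPM scaling. The direction of each member called in either line was the same under these scalings. At an adjusted p of at most 0.0001, the limit the study used, the 4 SUM149PT calls remained and no gene was called in HCC1937, where the smallest adjusted p was 0.000128.

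**Figure D2:**
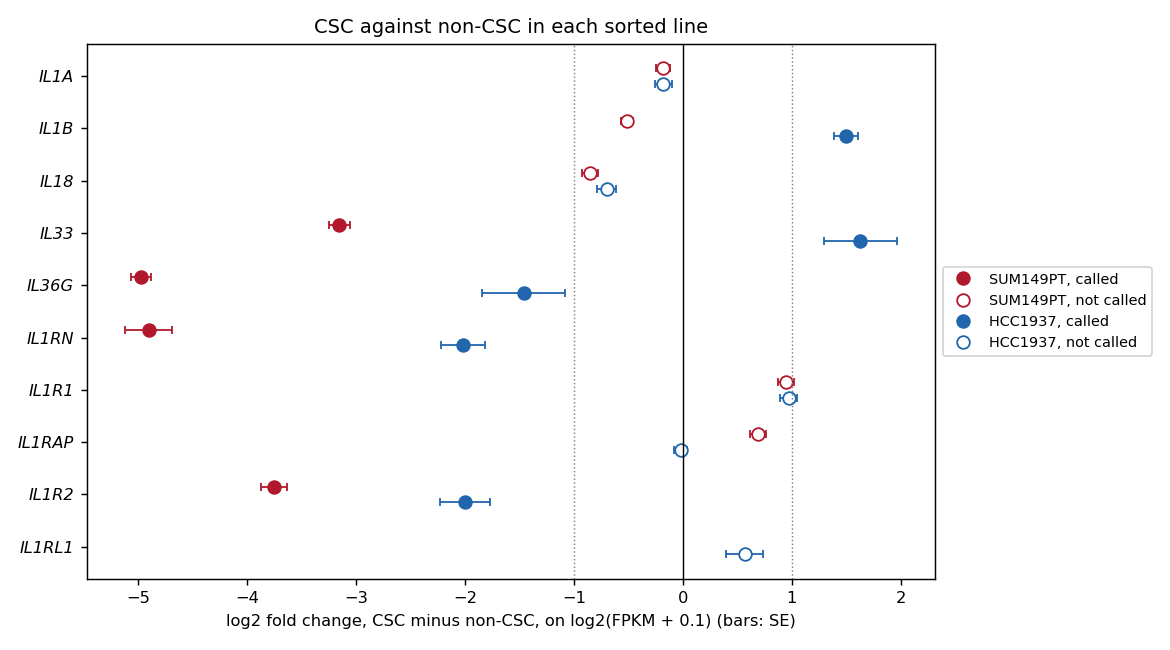
Log2 fold change of each member, CSC minus non-CSC, on log2(FPKM + 0.1), with its SE as a bar, in SUM149PT and HCC1937 (filled points, called; open points, not called; dotted lines at -1 and 1). IL1B and IL33 lie on opposite sides of 0 in the 2 lines, IL1RN, IL36G and IL1R2 lie below 0 in both, and IL1RL1 was not tested in SUM149PT.

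The agonists IL1A and IL1B were among the abundant transcripts of both sorted lines. IL1A was at 199.7, 203 and 198 FPKM in the SUM149PT CSC libraries, at 242, 217 and 223 FPKM in SUM149PT non-CSCs, and below 1 FPKM in each SUM159PT library. In HCC1937 it was at 34.6, 36.0 and 38.2 FPKM in CSCs and 43.6, 39.9 and 39.7 FPKM in non-CSCs. The order was SUM149PT above HCC1937 above SUM159PT, with no overlap of the groups, and in each line the CSC libraries lay just below the non-CSC libraries. IL1A was not called in either line (log2 fold change -0.18 ± 0.06 SE, adjusted p = 0.0399 in SUM149PT and log2 fold change -0.18 ± 0.08 SE, adjusted p = 0.15 in HCC1937), and its effect hardly differed between the lines, with a sign that turned after upper quartile scaling (0.00210).

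IL1B differed between the lines in its direction. In SUM149PT it was at 274, 282 and 268 FPKM in CSCs and 408, 381 and 389 FPKM in non-CSCs. In HCC1937 it was at 254, 204 and 209 FPKM in CSCs and 73.3, 83.9 and 78.1 FPKM in non-CSCs, and in SUM159PT at 0.5, 0.840 and 0.648 FPKM. The CSC libraries lay below all non-CSC libraries in SUM149PT and above all of them in HCC1937. The difference in SUM149PT did not reach the fold change limit (log2 fold change -0.51 ± 0.06 SE, adjusted p = 3.96e-04), while IL1B was called higher in HCC1937 CSCs (log2 fold change 1.5 ± 0.11 SE, adjusted p = 6.22e-04), 2.83 times the mean FPKM of non-CSCs. Its interaction with the line was called (difference of the log2 fold changes, SUM149PT minus HCC1937, -2.01 ± 0.12 SE, adjusted p = 5.79e-07), beside 30.4% of the 16451 genes tested for it, among them 5 of the 10 members. Of all interaction calls 40.2% were higher in SUM149PT as deposited and 50.7% after quantile normalization, and the median of all genes moved from -0.08 to 0.06. With IL1A nearly level between fractions, the ratio of IL1B to IL1A in FPKM was 7.33, 5.68 and 5.46 in the HCC1937 CSC libraries and 1.68, 2.10 and 1.97 in the non-CSC libraries, against 1.38 ± 0.0168 and 1.73 ± 0.0360 (SD, n = 3) in the SUM149PT fractions.

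IL18, a ligand whose precursor is cleaved by caspase-1, was lower in the CSCs of both lines by less than the fold change limit. It was at 24.9, 27.6 and 25.7 FPKM in SUM149PT CSCs and 49.3, 48.1 and 44.0 FPKM in non-CSCs. HCC1937 had IL18 at 28.9, 29.1 and 28.9 FPKM in CSCs and 52.2, 46.3 and 43.0 FPKM in non-CSCs, and SUM159PT had it at 52.3, 56.5 and 47.2 FPKM. Every CSC library of the sorted lines lay below every non-CSC library, and the ranges of both non-CSC groups and SUM159PT overlapped. The log2 fold changes were -0.85 ± 0.07 SE (adjusted p = 1.42e-04) in SUM149PT and -0.70 ± 0.09 SE (adjusted p = 0.00354) in HCC1937.

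IL36G, a ligand of epithelia and skin, and IL33, a nuclear cytokine released by damaged cells, were low in the CSCs of SUM149PT. IL36G was at 1.43, 1.31 and 1.62 FPKM in SUM149PT CSCs and 50.5, 47.5 and 47.3 FPKM in non-CSCs, a ratio of means of 33.4 (log2 fold change -4.97 ± 0.09 SE, adjusted p = 1.51e-06). IL33 was at 1.2, 1.34 and 1.39 FPKM in SUM149PT CSCs and 13.9, 12 and 11.5 FPKM in non-CSCs, a ratio of 9.52 (log2 fold change -3.15 ± 0.10 SE, adjusted p = 3.83e-06). The fractions of SUM149PT did not overlap for either gene, and its non-CSCs were the only group above 2 FPKM for them.

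Both genes were below 1 FPKM in every HCC1937 library, where they went in opposite directions. IL33 was at 0.75, 0.314 and 0.573 FPKM in HCC1937 CSCs and 0.113, 0.0453 and 0.159 FPKM in non-CSCs, and was called higher in CSCs (log2 fold change 1.63 ± 0.33 SE, adjusted p = 0.0181). That call ended without CSC replicate 3 (1.57, adjusted p = 0.0591), non-CSC replicate 1 (1.67, adjusted p = 0.0580) or non-CSC replicate 2 (1.40, adjusted p = 0.0526), and with a pseudocount of 1 FPKM (0.47), while the direction was the same. IL36G was at 0.0900, 0.149 and 0.271 FPKM in CSCs and 0.351, 0.944 and 0.677 FPKM in non-CSCs, and was called lower (log2 fold change -1.46 ± 0.38 SE, adjusted p = 0.0418). The IL36G call ended without CSC replicate 1 (-1.24, adjusted p = 0.102) or 2 (-1.43, adjusted p = 0.111), without non-CSC replicate 2 (-1.19, adjusted p = 0.108) or 3 (-1.40, adjusted p = 0.111), with a pseudocount of 1 FPKM (-0.49), and, by the adjusted p, with a pseudocount of 0.01 FPKM (0.0523), no expression minimum (0.0569), TPM scaling (0.0626) and quantile normalization (0.0513). In SUM159PT, IL33 was listed at 0, 0.0720 and 0.0133 FPKM and IL36G at 0, 0.107 and 0 FPKM. The interaction was called for IL33 (-4.78 ± 0.37 SE, adjusted p = 2.66e-06, and -3.02 with a pseudocount of 1 FPKM) and for IL36G (-3.51 ± 0.42 SE, adjusted p = 5.52e-05).

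The antagonist IL1RN was lower in CSCs of both sorted lines. It was at 2.23, 1.19 and 1.77 FPKM in SUM149PT CSCs and 54.1, 52.0 and 53.0 FPKM in non-CSCs, a ratio of means of 30.7 (log2 fold change -4.90 ± 0.22 SE, adjusted p = 1.19e-05). HCC1937 had IL1RN at 0.321, 0.574 and 0.578 FPKM in CSCs and 2.15, 2.43 and 2.14 FPKM in non-CSCs, a ratio of 4.56 (log2 fold change -2.02 ± 0.21 SE, adjusted p = 0.00166). SUM149PT non-CSCs stood above all other groups, HCC1937 non-CSCs overlapped SUM149PT CSCs, and SUM159PT was lowest at 0.0669, 0.0726 and 0.0352 FPKM. With a pseudocount of 1 FPKM the HCC1937 value was -1.12, still called. The fold was larger in SUM149PT (interaction -2.88 ± 0.32 SE, adjusted p = 2.97e-05). Set against its agonists, IL1RN per 100 FPKM of IL1A plus IL1B was 0.471, 0.244 and 0.380 in the SUM149PT CSC libraries and 8.32, 8.70 and 8.64 in the non-CSC libraries. In HCC1937 it was 0.111, 0.239 and 0.234 in CSCs and 1.84, 1.96 and 1.81 in non-CSCs. In each sorted line the antagonist transcript was thus scarcer relative to the agonist transcripts in all CSC libraries than in any non-CSC library, and in SUM159PT the ratio of 4.95 ± 1.53 (SD, n = 3) was between genes that were all below 1 FPKM.

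Among the receptors, the signaling receptor IL1R1 went the other way from the decoy IL1R2. IL1R1 was at 3.45, 3.28 and 3.33 FPKM in SUM149PT CSCs and 1.62, 1.86 and 1.60 FPKM in non-CSCs. HCC1937 had IL1R1 at 1.74, 1.56 and 1.77 FPKM in CSCs and 0.847, 0.773 and 0.811 FPKM in non-CSCs, and SUM159PT had it at 1.30, 1.57 and 1.75 FPKM. All CSC libraries lay above the non-CSC libraries of their line, with SUM149PT CSCs highest, HCC1937 non-CSCs lowest, and the other 3 groups overlapping in rank order. That order is the one of the deposited FPKM: after quantile normalization SUM159PT stood above SUM149PT CSCs (log2 difference 0.33, adjusted p = 0.00221). The means of CSCs were 1.98 and 2.08 times those of non-CSCs in SUM149PT and HCC1937, and the log2 fold changes stood just under the limit (log2 fold change 0.95 ± 0.07 SE, adjusted p = 9.87e-05, and log2 fold change 0.97 ± 0.08 SE, adjusted p = 7.81e-04). They passed it after TPM scaling (1.02 and 1.15) and quantile normalization (1.23 and 1.07). In SUM149PT the limit was also passed without non-CSC replicate 2 (1.01), and in HCC1937 without CSC replicate 2 (1.03) or non-CSC replicate 1 (1), or with a pseudocount of 0.01 FPKM (1.05). The effect hardly differed between the lines (interaction -0.02), with a sign that turned after quantile normalization (0.19).

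The decoy IL1R2 was called lower in the CSCs of both lines. It was at 0.0406, 0.0451 and 0.0187 FPKM in SUM149PT CSCs and 1.82, 1.84 and 1.5 FPKM in non-CSCs (log2 fold change -3.75 ± 0.12 SE, adjusted p = 4.08e-06). HCC1937 had IL1R2 at 0.649, 1.17 and 0.777 FPKM in CSCs and 3.02, 3.95 and 4.13 FPKM in non-CSCs (log2 fold change -2 ± 0.23 SE, adjusted p = 0.00239), and SUM159PT had it at 15.4, 18.8 and 12.2 FPKM. The 5 groups did not overlap and ran from SUM159PT down through HCC1937 non-CSCs, SUM149PT non-CSCs and HCC1937 CSCs to SUM149PT CSCs. The SUM149PT log2 fold change ran from -5.32 to -1.39 over the alternatives, -1.39 being the value with a pseudocount of 1 FPKM, and was called in each that tested it. There IL1R2 passed the expression minimum only through non-CSCs. The interaction was called at -1.75 ± 0.27 SE (adjusted p = 3.17e-04), but it was -0.0555 (adjusted p = 0.776) with a pseudocount of 1 FPKM, which is far above the level of IL1R2 in SUM149PT CSCs, and ran to -3.20 with a pseudocount of 0.01 FPKM. The ratio of decoy to signaling receptor in FPKM was 0.0118, 0.0137 and 0.00562 in SUM149PT CSCs and 1.12, 0.989 and 0.939 in non-CSCs. It was 0.374, 0.75 and 0.439 in HCC1937 CSCs, 3.56, 5.11 and 5.10 in HCC1937 non-CSCs and 11.9, 12 and 6.94 in SUM159PT. Decoy transcripts thus exceeded those of the signaling receptor in every HCC1937 non-CSC and SUM159PT library, and were below them in every CSC library of the sorted lines.

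**Figure D3:**
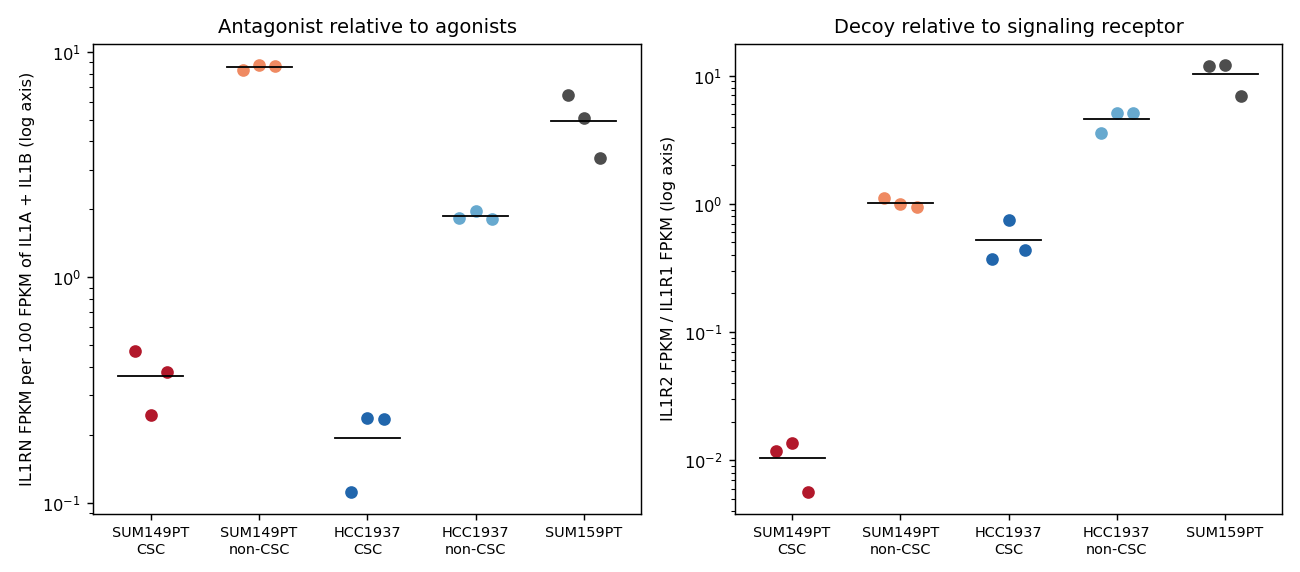
Ratios of FPKM per library on log axes, with 1 point per library and a bar at the mean of 3, in the 5 groups along the horizontal axis: IL1RN per 100 FPKM of IL1A plus IL1B (left) and IL1R2 over IL1R1 (right). In both sorted lines the CSC libraries lie below the non-CSC libraries for both ratios.

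The accessory chain IL1RAP, needed for signaling by IL1R1, ST2 and the interleukin 36 receptor, was at 15.4, 14.1 and 14.9 FPKM in SUM149PT CSCs and 9.42, 9.63 and 8.40 FPKM in non-CSCs. HCC1937 had IL1RAP at 15.5, 15.9 and 16.3 FPKM in CSCs and 16.3, 16.0 and 15.9 FPKM in non-CSCs, and SUM159PT had it at 0.259, 0.179 and 0.309 FPKM. SUM149PT CSCs lay above their non-CSCs without reaching the fold change limit (log2 fold change 0.69 ± 0.08 SE, adjusted p = 3.97e-04), the HCC1937 fractions overlapped (log2 fold change -0.02 ± 0.06 SE, adjusted p = 0.855; the sign turned after TPM scaling, 0.11, and quantile normalization, 0.0493), and SUM159PT stood far below the sorted lines. IL1RL1, the receptor of IL33, was near the floor in SUM149PT, at 0.0182, 0.0472 and 0.0291 FPKM in CSCs and 0.0713, 0.0574 and 0.0860 FPKM in non-CSCs, and was not tested there. HCC1937 had IL1RL1 at 2.55, 2.10 and 2.25 FPKM in CSCs and 1.42, 1.27 and 1.93 FPKM in non-CSCs, and SUM159PT had it at 2.19, 3.03 and 2.54 FPKM. Its HCC1937 fractions did not overlap but were not called (log2 fold change 0.57 ± 0.17 SE, adjusted p = 0.0591), and the ranges of SUM159PT and HCC1937 CSCs overlapped. The interaction was not called for IL1RL1 (-0.95), but passed the limit without SUM149PT CSC replicate 2 (-1.04), SUM149PT non-CSC replicate 2 (-1.01), HCC1937 CSC replicate 2 (-1.01) or HCC1937 non-CSC replicate 3 (-1.12), and by more after TPM scaling (-1.42, adjusted p = 0.00197) or with a pseudocount of 0.01 FPKM (-1.62, adjusted p = 0.00387). In that fit IL1RL1 passed the expression minimum through HCC1937 alone. Its values set the HCC1937 difference against levels near the floor, so they cannot show whether the CSC effect differed between the lines. IL18R1, which shares part of its locus with IL1RL1, was at 0.698, 0.958 and 0.469 FPKM in HCC1937 CSCs, 0.769, 0.736 and 0.454 FPKM in non-CSCs and 1.62, 1.64 and 1.95 FPKM in SUM159PT. The ligand IL33 and its receptor were thus highest in different groups: IL33 in SUM149PT non-CSCs, and IL1RL1 in HCC1937 and SUM159PT.

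Within the sorted lines, genes of epithelial identity went with IL1RN, IL36G and IL1R2, the members called lower in the CSCs of both. Across lines IL1R2 did not, being highest in SUM159PT (mean 15.5 FPKM), where the epithelial sum was below that of either non-CSC group. IL33 went with the epithelial genes in SUM149PT only, since it was called higher in HCC1937 CSCs, as was IL1B. IL1R1 lay higher in the CSC libraries of both lines, just under the fold change limit, and was called in neither. Of 8 epithelial markers, 7 were called lower in the CSCs of each line, KRT14 being the exception in both, beside 22.1% of all genes tested in SUM149PT and 6.0% in HCC1937. The list was led by KRT19 (-4.75 ± 0.05 SE), KRT5 (-4.62 ± 0.07 SE) and CDH1 (-4.52 ± 0.08 SE) in SUM149PT and by CDH1 (-2.29 ± 0.08 SE), KRT19 (-2.29 ± 0.19 SE) and EPCAM (-2.23 ± 0.10 SE) in HCC1937. Their FPKM summed to 193, 202 and 198 in SUM149PT CSCs and 2395, 2321 and 2317 in non-CSCs. In HCC1937 the sums were 732, 681 and 618 in CSCs and 1845, 1855 and 1600.3 in non-CSCs, and in SUM159PT 294, 278 and 293. The most abundant of them was KRT17 in SUM149PT CSCs, KRT19 in SUM149PT non-CSCs, KRT8 in HCC1937 CSCs and KRT18 in the other 2 groups, and none was listed at 0 in all libraries of a group. The libraries low in IL1RN, IL36G and IL1R2 were therefore also those low in epithelial transcripts within each sorted line. In these bulk libraries fewer cells of a type and less RNA per cell cannot be told apart, and the part of epithelial identity in the levels of the members was not tested.

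Keratinocyte differentiation genes were measured because IL36G, IL1RN and IL33 are made by differentiating epithelia. Of 12, 6 of the 9 tested were called lower in SUM149PT CSCs, led by SPRR2A (-5.03 ± 0.38 SE), IVL (-3.08 ± 0.10 SE) and CNFN (-2.75 ± 0.20 SE), and 8 of the 11 tested in HCC1937 CSCs, led by SPRR1B (-3.98 ± 0.13 SE), SPRR1A (-3.79 ± 0.20 SE) and SPRR3 (-3.72 ± 0.59 SE). None was called higher in either line, and the shares of all genes called lower were the same as beside the epithelial list. IVL, SPRR1B, KRT13 and CALML5 in SUM149PT, and KRT4 in HCC1937, passed the expression minimum only through non-CSCs, where they were higher. IVL, for example, was at a mean of 0.0868 FPKM in SUM149PT CSCs and 1.47 FPKM in non-CSCs. The counts are therefore not comparable with those shares. Their FPKM summed to 7.28, 6.83 and 7.96 in SUM149PT CSCs and 30.1, 27.5 and 27.6 in non-CSCs. In HCC1937 the sums were 51.7, 39.9 and 35.5 in CSCs and 237, 241 and 208 in non-CSCs, and in SUM159PT 6.84, 5.95 and 4.67. The line with the higher sum in non-CSCs was HCC1937, while IL36G and IL1RN were far higher in SUM149PT non-CSCs, so across lines these levels did not rank alike. KRT10 was the most abundant in SUM149PT CSCs and SUM159PT, SPRR2A in SUM149PT non-CSCs, CALML5 in HCC1937 CSCs and SPRR1B in HCC1937 non-CSCs, and KRT1 was listed at 0 in 4 of the 5 groups. The part of this program in the levels of the members was not tested.

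Markers of other cell types were counted too, beside 12.8% of all genes called higher and 22.1% lower in SUM149PT, and 2.71% and 6.0% in HCC1937. Of 7 fibroblast genes, 4 of the 6 tested were called higher and 1 lower in SUM149PT CSCs, led by PDGFRA (3.11 ± 0.17 SE), DCN (-3.10 ± 0.09 SE) and PDGFRB (3.10 ± 0.13 SE), and 0 of the 2 tested were called in HCC1937 (limma; LUM had an adjusted p of 0.0525 and COL1A1 of 0.00667). Their FPKM summed to 242, 244 and 239 in SUM149PT CSCs and 67.4, 68.9 and 71.0 in non-CSCs, with COL1A1 the most abundant in both, and to 11.6, 11.8 and 11.0 and 5.92, 7.04 and 7.66 in the HCC1937 fractions. Of 10 hematopoietic genes, CD14 (-4.23 ± 0.13 SE) and CD68 (-1.57 ± 0.05 SE) were called lower in SUM149PT CSCs and CSF1R (-1.01 ± 0.25 SE) in HCC1937 CSCs, out of 4 tested in each line. The hematopoietic genes summed to 19.4, 19.6 and 18.4 FPKM in SUM149PT CSCs and 101, 96.0 and 103 FPKM in non-CSCs, and to 109, 107 and 94.2 and 72.0, 73.7 and 68.7 FPKM in the HCC1937 fractions, nearly all of it CD14 and CD68. Of 4 endothelial genes, 3 of 3 tested were called lower in SUM149PT CSCs, led by CDH5 (-2.70 ± 0.11 SE), and CDH5 alone of 2 tested in HCC1937 CSCs (-1.28 ± 0.25 SE), all at means below 1 FPKM. In SUM149PT CSCs the 4 summed to a mean of 0.168 FPKM, of which PECAM1 was 0.108 FPKM. CDH5 and VWF thus passed the expression minimum there only through non-CSCs, and that count is not comparable with the shares. ESR1 was called lower in the CSCs of both lines (-2.61 ± 0.18 SE and -1.85 ± 0.13 SE), and in SUM149PT it too passed the minimum only through non-CSCs.

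The other genes of the family were mostly scarce. Of 12 further ligands and receptors, 9 had a mean under 1 FPKM in every one of the 5 groups. The others were SIGIRR, a receptor that dampens signaling, IL18BP, which binds IL18, and IL18R1, which passed 1 FPKM in SUM159PT only. In SUM149PT, 6 were tested and 3 called, beside 34.9% of all genes: the interleukin 36 receptor antagonist IL36RN was called lower in CSCs, at 0, 0.0131 and 0.0111 FPKM against 0.269, 0.312 and 0.122 FPKM, and IL18R1 (1.35 ± 0.17 SE) and IL1RAPL1 (1.16 ± 0.33 SE) were called higher. IL36RN and IL1RAPL1 passed the expression minimum only through the fraction where each was higher (for IL1RAPL1, means of 0.219 FPKM in CSCs and 0.0347 FPKM in non-CSCs). The count is therefore not comparable with the share of all genes. In HCC1937, 0 of 5 were called by limma, beside 8.71% of all genes, and 1 of the 5 had an adjusted p of at most 0.05. The interleukin 36 receptor gene IL1RL2 was at 0.0117 FPKM in SUM149PT CSCs and 0.00843 FPKM in non-CSCs, so the group with the most IL36G transcript had hardly any of its receptor.

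Receptor signaling genes were called in SUM149PT at a share near that of all genes. Of 16, 15 were tested there, of which 5 were called lower and 2 higher in CSCs, 46.7% beside 34.9% of all genes tested (median log2 fold change 0.10, against -0.11 over all genes tested). The kinase IRAK1 was at 18.2, 18.3 and 18.8 FPKM in CSCs and 81.5, 83.5 and 84.1 FPKM in non-CSCs (log2 fold change -2.16 ± 0.05 SE, adjusted p = 2.22e-06). The E3 ligases PELI1 (-1.92 ± 0.06 SE) and PELI2 (1.88 ± 0.08 SE), which act on IRAK proteins, went in opposite directions. In HCC1937, 0 of the 14 tested were called by limma, beside 8.71% of all genes (median -0.08 against -0.03 over all genes tested), and 4 of them had an adjusted p of at most 0.05. The interaction was called for 6 of 15, beside 30.4% of all genes.

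Of 13 genes of inflammasomes and cytokine processing, 9 were tested in SUM149PT, with 2 calls lower and 5 higher in CSCs, beside 22.1% of all genes called lower and 12.8% higher (median 1.22, against -0.11 over all genes). CASP1, the protease that cleaves the IL1B and IL18 precursors, was at 9.79, 10.4 and 12.1 FPKM in SUM149PT CSCs and 2.19, 2.17 and 2.89 FPKM in non-CSCs (log2 fold change 2.12 ± 0.14 SE, adjusted p = 5.16e-05). Its adaptor PYCARD was at 0.876, 1.05 and 1.29 FPKM in CSCs and 18.3, 18.1 and 17.6 FPKM in non-CSCs (log2 fold change -3.96 ± 0.13 SE, adjusted p = 5.13e-06), and the DNA sensor AIM2 was called higher (2.26 ± 0.10 SE). The protease and its adaptor thus lay on opposite sides, with no overlap of the fractions for either. In HCC1937 CAPN1, a calpain, was the only gene of 7 tested to be called, lower in CSCs (-1.11 ± 0.07 SE), beside 6.0% of all genes called lower, and NAIP and GSDMD were listed at 0 in all 15 libraries. CASP1 was scarce in HCC1937, at 0.904, 0.754 and 0.436 FPKM in CSCs and 1.03, 0.711 and 0.612 FPKM in non-CSCs, and the fractions overlapped.

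Of 19 genes known to respond to interleukin 1, 18 were tested in SUM149PT, with 8 calls lower and 3 higher in CSCs, beside 22.1% and 12.8% of all genes (median -0.85, against -0.11 over all genes). In HCC1937 all 19 were tested, with 2 calls lower and 8 higher, beside 6.0% and 2.71% of all genes (median 0.56, against -0.03). CXCL5 in SUM149PT (mean 0.0981 FPKM in CSCs) and CCL2 in HCC1937 (0.0388 FPKM in non-CSCs) passed the expression minimum only through the other fraction. The counts are therefore not strictly comparable with the shares. The neutrophil chemokine CXCL6 was at 0.776, 0.406 and 0.861 FPKM in SUM149PT CSCs and 26.7, 18.8 and 23.8 FPKM in non-CSCs (log2 fold change -4.93 ± 0.28 SE, adjusted p = 2.73e-05), and at 19.1, 20.0 and 17.4 FPKM in HCC1937 CSCs and 2.68, 3.95 and 3.47 FPKM in non-CSCs (log2 fold change 2.47 ± 0.15 SE, adjusted p = 4.12e-04). CXCL1 was called lower in SUM149PT CSCs (-4.69 ± 0.11 SE) and CXCL5 higher in HCC1937 CSCs (2.23 ± 0.16 SE). The interaction was called for 15 of the 19, 3 with a higher and 12 with a lower log2 fold change in SUM149PT, beside 30.4% of all genes tested, of whose calls 40.2% were higher as deposited and 50.7% after quantile normalization. LCN2, an iron binding protein of epithelia, was called lower in the CSCs of both lines, at 88.2, 96.7 and 95.2 against 2532, 2197 and 2355 FPKM in SUM149PT and 272, 269 and 268 against 1443, 1336 and 1187 FPKM in HCC1937. In SUM149PT 3 of the 11 calls of the list were higher, beside 36.5% of all calls as deposited and 51.2% after quantile normalization. In HCC1937 8 of the 10 were higher, beside 31.1% and 40.8% of all calls. The splits were not tested against those of all calls, and whether IL1B had a part in the levels of the list was not tested.

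**Figure D4:**
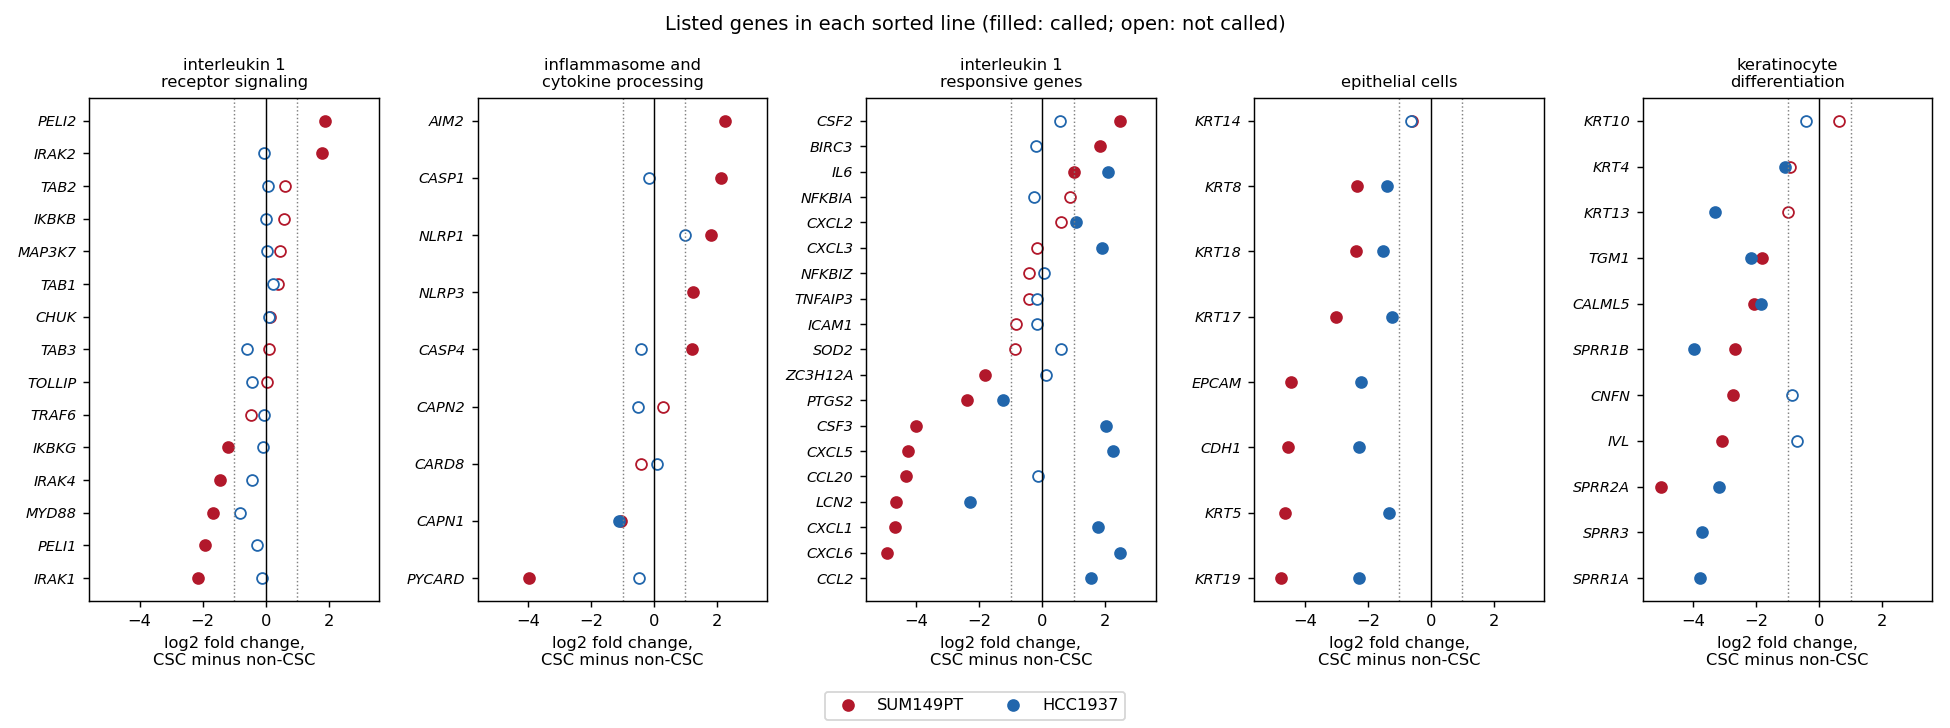
Log2 fold change, CSC minus non-CSC, on log2(FPKM + 0.1), of the tested genes of 5 lists in SUM149PT and HCC1937 (filled points, called; open points, not called; dotted lines at -1 and 1). Epithelial and keratinocyte genes lie mostly below 0 in both lines, while CXCL6 and CXCL5 lie below 0 in SUM149PT and above 0 in HCC1937.

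The CSC groups were then compared across lines, which asks how far cells with the same surface phenotype share these levels. These comparisons share groups, so each is read on its own. Between the CSCs of HCC1937 and SUM149PT, 6 of 10 members were called, 2 higher and 4 lower in HCC1937, beside 43.0% of 16373 genes. IL1RL1 (log2 fold change 4.19 ± 0.15 SE, adjusted p = 9.18e-11) and IL1R2 (log2 fold change 2.81 ± 0.20 SE, adjusted p = 5.52e-08) were higher in HCC1937 CSCs. In SUM149PT CSCs their means were 0.0315 and 0.0348 FPKM, and both passed the expression minimum only through other groups. The count of 6 is therefore not comparable with that share. IL36G (-2.57 ± 0.34 SE), IL1A (-2.46 ± 0.11 SE), IL1RN (-1.62 ± 0.21 SE) and IL33 (-1.19 ± 0.27 SE) were lower, and the IL33 call ended without HCC1937 CSC replicate 2 (-0.90) and with a pseudocount of 0.01 FPKM (-1.33, adjusted p = 0.0784). With a pseudocount of 1 FPKM the calls of IL1RN (-0.86), IL33 (-0.59) and IL1R2 (0.84) ended, and those of IL36G (-1.07) and IL1RL1 (1.68) remained. IL1B and IL1RAP, the agonist and accessory chain, were not called between the CSC groups, at -0.31 ± 0.14 SE and 0.10 ± 0.11 SE, and the sign of IL1RAP turned after upper quartile scaling (-0.14), as did that of IL18 (0.15 as deposited, -0.0897 after it). IL1R1 was just under the limit (log2 fold change -0.95 ± 0.10 SE, adjusted p = 1.56e-06) and was called lower in HCC1937 CSCs after upper quartile scaling (-1.18), TPM scaling (-1.06) and quantile normalization (-1.11). Under each of these 7 members were called, beside 6807, 7323 and 6995 of all 16373 genes. Of all calls 59.7% were higher in HCC1937 CSCs as deposited and 49.5% after upper quartile scaling, the median of all genes moving from 0.22 to 0.000681. Without the SUM159PT libraries in the fit, a choice made after seeing the data, 6 members were called too, beside 7034 of 16451 genes.

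SUM159PT differed from both CSC groups in most genes, with 9 of 10 members called against SUM149PT CSCs beside 61.4% of genes, and 7 of 10 against HCC1937 CSCs beside 64.1% of genes. The means of IL1RN, IL33 and IL36G in SUM159PT, and of IL1R2 and IL1RL1 in SUM149PT CSCs, were under 0.1 FPKM. These genes passed the expression minimum only through other groups, so the counts are not comparable with those shares. IL1A was at 0.541, 0.595 and 0.398 FPKM in SUM159PT, a log2 difference of -8.37 from SUM149PT CSCs and -5.91 from HCC1937 CSCs, and that of IL1B was -8.52 and -8.20. IL1RAP differed by -5.43 and -5.53, and IL1R2 was higher by 6.84 and 4.03 (adjusted p = 3.75e-12 and 6.32e-10). SUM159PT thus had little agonist or accessory chain transcript and the most decoy receptor, and these 4 kept their direction under each alternative tried. IL1RN and IL33 were called lower than in both CSC groups, although against HCC1937 CSCs the call of IL1RN ended with a pseudocount of 1 FPKM (-0.49) and quantile normalization (-0.60), and that of IL33 with a pseudocount of 1 FPKM (-0.58). IL36G was called lower than in SUM149PT CSCs (-3.60 ± 0.34 SE). It was called lower than in HCC1937 CSCs (-1.03 ± 0.34 SE) although the ranges overlapped, a call that ended without HCC1937 CSC replicate 3 (-0.77), SUM159PT replicate 1 (-0.85) or SUM159PT replicate 3 (-0.85), with a pseudocount of 1 FPKM (-0.17), and after upper quartile scaling (-0.85) or quantile normalization (-0.47). IL1RL1 was called higher than in SUM149PT CSCs (4.35 ± 0.15 SE). Against SUM149PT CSCs the sizes of these low genes varied with the pseudocount and scaling, over -4.90 to -1.35 for IL1RN, -5.62 to -1.17 for IL33, -6.0 to -1.24 for IL36G and 1.79 to 6.01 for IL1RL1.

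For the remaining members the comparison with SUM159PT turned on the scaling. IL18 was 0.99 above SUM149PT CSCs and 0.84 above HCC1937 CSCs on the log2 scale as deposited, but -0.0965 and -0.16 after TPM scaling, which sets each library to the same sum. After upper quartile scaling it was called higher in SUM159PT than in both (1.30, adjusted p = 4.95e-09 against SUM149PT CSCs and 1.39, adjusted p = 2.42e-09 against HCC1937 CSCs). Against SUM149PT CSCs it passed the fold change limit without SUM149PT CSC replicate 2 (1.03) or SUM159PT replicate 3 (1.06). IL1R1 was called lower than in SUM149PT CSCs (-1.08 ± 0.10 SE), a call that ended without SUM159PT replicate 1 (-0.97), with a pseudocount of 1 FPKM (-0.78) or after upper quartile scaling (-0.79), and its sign turned after quantile normalization (0.33). Against HCC1937 CSCs neither IL1R1 (-0.13) nor IL1RL1 (0.15) was called, and both depended on the scaling. IL1R1 was called lower in SUM159PT after TPM scaling (-1.11, adjusted p = 2.18e-06), while its sign turned after upper quartile scaling (0.39) and quantile normalization (1.44). IL1RL1 was called higher in SUM159PT after quantile normalization (1.53, adjusted p = 2.46e-07), and its sign turned after TPM scaling (-0.83). Of all calls, 31.1% against SUM149PT CSCs and 27.5% against HCC1937 CSCs were higher in SUM159PT as deposited, against 11.2% and 12.9% after TPM scaling and 50.2% and 49.0% after quantile normalization, and 38.5% against HCC1937 CSCs after upper quartile scaling. The median of all genes moved from -0.60 to -1.63 and 0.06 against SUM149PT CSCs under these scalings, and from -0.85 to -1.83 and 0.02 against HCC1937 CSCs.

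Genes with patterns most like the 3 most abundant members were ranked by Pearson correlation of log2(FPKM + 0.1) over the 15 libraries, among 12164 genes whose mean reached 1 FPKM. For IL1B these were TGFBR1 (r = 0.997), RAB8B (r = 0.996) and TRAM1 (r = 0.996), for IL1A R3HCC1L (r = 0.999), G3BP2 (r = 0.998) and AHCYL1 (r = 0.997), and for IL18 PRR5 (r = 0.965), SGPP2 (r = 0.943) and DEF6 (r = 0.943). The genes named for IL1A and IL1B shared with them the low level in SUM159PT, the libraries that stood apart. Over the 12 sorted libraries alone the coefficients were 0.943, 0.937 and 0.944 for IL1B, 0.992, 0.986 and 0.991 for IL1A, and 0.957, 0.955 and 0.930 for IL18, which describe 4 groups of near replicates and not independent samples. TGFBR1 was at 10.9 FPKM in SUM149PT CSCs, 15 in SUM149PT non-CSCs, 12.1 in HCC1937 CSCs, 7.47 in HCC1937 non-CSCs and 0.666 in SUM159PT, an order like that of IL1B except that the CSCs of the sorted lines changed places.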

How the data were processed

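mRNA selected with oligo(dT) from 15 libraries of established cell lines was sequenced on an Illumina HiSeq. The authors deposited 1 table of FPKM for 33158 gene symbols, and their processing notes name Bowtie2 and GRCh38, while the quantification tool is not given in the sources used here. The table holds no counts, and no step between values gave back whole reads, so depth and counting error are unknown. Values were fitted as log2(FPKM + 0.1) with limma 3.58.1 (R 4.3.3) for genes whose mean reached 0.1 FPKM, within each sorted line, over the 12 sorted libraries for the interaction and over 15 for comparisons among CSC groups. Calls needed an adjusted p (Benjamini-Hochberg) no larger than 0.05 together with a log2 fold change of 1 or more in size. Tables and figures were made with Python 3.11.15, pandas 2.3.3 and matplotlib 3.10.9, and the fit was tested on simulated data. Alternatives changed the pseudocount, expression minimum, scaling, variance model, limits, replicate block and libraries left out, and a fit without SUM159PT was added after seeing the data. The members, and 11 lists of 107 genes, of which 106 are in the table, were chosen with earlier results of these data known. From each list at most 3 called genes with the largest log2 fold changes in size were named per sorted line, besides markers, exceptions and genes of known role, which were chosen after their values were seen.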

Additional observations from a re-analysis of the deposited data

Results flagged for a closer look

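For 5 members the difference between CSCs and non-CSCs was itself different in the sorted lines, by the interaction term of the limma fit over 12 libraries (log2 fold change in SUM149PT minus that in HCC1937). It was -2.01 for IL1B (adjusted p = 5.79e-07) and -4.78 for IL33 (adjusted p = 2.66e-06), which were lower in CSCs of SUM149PT and higher in those of HCC1937. It was -2.88 for IL1RN (adjusted p = 2.97e-05), -3.51 for IL36G (adjusted p = 5.52e-05) and -1.75 for IL1R2 (adjusted p = 3.17e-04), which were lower in CSCs of both lines, and more so in SUM149PT. With a pseudocount of 1 FPKM the IL1R2 difference was -0.0555 (adjusted p = 0.776). IL33 and IL36G were below 1 FPKM in all HCC1937 libraries, and their calls there ended when single libraries were left out. IL1B was not called in SUM149PT (log2 fold change -0.51). Each line is 1 line, so a difference between lines rests on 1 of each.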

How the results depend on the processing

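Over all results and alternatives, 1261 values kept their direction and side of the limits, 39 kept the direction but were no longer called, 35 became called and 23 turned direction. The cause was not tested. In SUM149PT the 5596 genes called became 3109 with a pseudocount of 1 FPKM, 3623 at a mean of at least 1 FPKM, 3292 under an adjusted p limit of 0.0001 and 11993 with no fold change limit, which raised the members called from 4 to 9. In HCC1937 the 1357 became 626, 872, 0 and 3985 under the same alternatives, and the 5 members called became 3, 3, 0 and 7. With 0 genes called by limma there, 5886 of 15582 had an unadjusted p under 0.05, the smallest adjusted p was 0.000128, and no other tool was run. For the interaction the 5004 genes became 2872 with a pseudocount of 1 FPKM, 2922 under an adjusted p limit of 0.0001 and 10053 with no fold change limit. Between HCC1937 and SUM149PT CSCs the 7033 became 4289 with a pseudocount of 1 FPKM and 12591 with no fold change limit, and the members called went from 6 to 3 with that pseudocount. Between SUM159PT and HCC1937 CSCs they went from 7 to 4 with it, and all genes called from 10499 to 7541. The fit over the 12 sorted libraries, chosen after seeing the data, called 7034 genes and 6 members between HCC1937 and SUM149PT CSCs.

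Leaving out each library in turn gave 4 to 5 members and 5473 to 5593 genes in SUM149PT, 3 to 5 and 1170 to 1359 in HCC1937, 5 to 6 and 4863 to 5043 for the interaction, 5 to 6 and 6927 to 7071 between HCC1937 and SUM149PT CSCs, 8 to 10 and 9958 to 10085 between SUM159PT and SUM149PT CSCs, and 6 to 7 and 10411 to 10507 between SUM159PT and HCC1937 CSCs. The 3 members in HCC1937 were without HCC1937 non-CSC replicate 2. Interaction values of IL1A ran from -0.0466 to 0.0424 and of IL1R1 from -0.0783 to 0.0402 in these fits.

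Direction turned for IL1RAP in HCC1937 (TPM scaling 0.107, quantile normalization 0.0493) and in the interaction for IL1R1 (pseudocount of 1 FPKM 0.125, quantile normalization 0.186) and IL1A (upper quartile scaling 0.00210). Between HCC1937 and SUM149PT CSCs it turned for IL18 (upper quartile -0.0897, quantile -0.0555) and IL1RAP (-0.140 and -0.104). In SUM159PT it turned against SUM149PT CSCs for IL18 (TPM -0.0965) and IL1R1 (quantile 0.329), and against HCC1937 CSCs for IL1R1 (upper quartile 0.386, quantile 1.44), IL18 (TPM -0.165) and IL1RL1 (TPM -0.830).

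The libraries of a line share only numbers. The residuals of CSC and non-CSC libraries with the same number correlated at 0.0867, 0.0238 and 0.0797 in SUM149PT and -0.0841, -0.0364 and -0.0194 in HCC1937, and a replicate block gave 5584, 1268, 4981, 7031, 10058 and 10496 genes called in the 6 comparisons, against 5596, 1357, 5004, 7033, 10061 and 10499, with no change in the members called. IL1R2 in SUM149PT, IL33 and IL36G in HCC1937 and IL1RL1 in the interaction fell under a mean of 1 FPKM and gave no value there, and IL1RL1 in SUM149PT was not tested. Depth is unknown, so values below 1 FPKM have an unknown counting error.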
